A study of Homo sapiens with 3 samples.

Results

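The BCL2 family decides at the outer membrane of the mitochondria whether a cell enters apoptosis. Its signals were described in the Hodgkin's lymphoma (HL) cell lines L-428, L-540 and HDLM-2. The members were the 10 genes BCL2, BCL2L1, BCL2A1, MCL1, BAX, BAK1, BID, BCL2L11, PMAIP1 and BBC3, found by their symbol in the annotation of the array, alone or beside other genes. They matched 10 transcript clusters of 22011 in all, 1 for each gene, and 16840 of all clusters carry a gene symbol. Of the 10 clusters, 2 are shared with other genes. The cluster of MCL1 also carries ADAMTSL4 and ADAMTSL4-AS1, and that of BCL2A1 also carries ST20.

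RNA of each line was hybridized to 1 Affymetrix Human Exon 1.0 ST array, a microarray that probes the exons of a gene and summarises them in a transcript cluster. The lines were grown under standard culture conditions, and the labels give no genetic change for any of them. The sample descriptions mention vorinostat, an inhibitor of histone deacetylases, for L-428 and for HDLM-2 but not for L-540. In the paper itself, HL cell lines were treated with vorinostat for quantitative RT-PCR, and no treatment is given for the arrays. In any difference from L-540 the line and a treatment therefore cannot be told apart. With a single array of each line there is no replicate error, and every difference below is a description without a test.

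Anti-apoptotic members such as BCL2, BCL2L1 (BCL-XL), BCL2A1 (BFL-1 or A1) and MCL1 hold the effectors in check. The effectors BAX and BAK1 form pores in the outer membrane through which cytochrome c leaves the mitochondria. BH3-only proteins such as BID, BCL2L11 (BIM), PMAIP1 (NOXA) and BBC3 (PUMA) carry stress signals to both groups, and NOXA is known to bind MCL1 and BCL2A1 rather than BCL-XL. In HL cells, constant activity of NF-kappaB and of the JAK-STAT pathway is well known, and BCL2A1 and BCL2L1 are among the genes these pathways can switch on. Inhibitors of histone deacetylases are known to change the levels of several members of the family in other cells.

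In the signals as deposited, 4 of the 10 members differed by 4-fold or more in at least 1 pair of lines, as did 8.69% of all named clusters. BCL2L1, BCL2A1 and PMAIP1 had their highest signal in L-428, by more than 4-fold over both other lines, and MCL1 had its lowest signal in HDLM-2. BCL2A1 lay below the median of the array in L-540 and HDLM-2, so no size is read from its fold. The other 6 members, BCL2, BAX, BAK1, BID, BCL2L11 and BBC3, stayed within 2-fold in the deposited signals between any pair of lines. The bases before the annotated start of the 3 genes highest in L-428 are shown because these genes shared L-428 as their highest line. They are the 250 bases before the start, 5′ to 3′ on the strand of the gene, from RefSeq on the build GRCh38.p14. BCL2L1 lies at chr20:31723964-31724213 on the minus strand, BCL2A1 at chr15:79971197-79971446 on the minus strand and PMAIP1 at chr18:59899746-59899995 on the plus strand. Capitals mark matches to the motifs searched.
BCL2L1: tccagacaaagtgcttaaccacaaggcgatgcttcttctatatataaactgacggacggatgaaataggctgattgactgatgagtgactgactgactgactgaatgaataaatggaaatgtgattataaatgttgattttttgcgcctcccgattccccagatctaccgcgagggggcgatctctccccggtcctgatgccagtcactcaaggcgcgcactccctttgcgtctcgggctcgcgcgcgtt
BCL2A1: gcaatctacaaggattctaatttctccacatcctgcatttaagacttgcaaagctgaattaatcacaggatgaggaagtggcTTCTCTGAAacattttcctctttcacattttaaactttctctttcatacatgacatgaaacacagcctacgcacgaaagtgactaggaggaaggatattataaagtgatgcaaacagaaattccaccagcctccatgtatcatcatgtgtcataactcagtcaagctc
PMAIP1: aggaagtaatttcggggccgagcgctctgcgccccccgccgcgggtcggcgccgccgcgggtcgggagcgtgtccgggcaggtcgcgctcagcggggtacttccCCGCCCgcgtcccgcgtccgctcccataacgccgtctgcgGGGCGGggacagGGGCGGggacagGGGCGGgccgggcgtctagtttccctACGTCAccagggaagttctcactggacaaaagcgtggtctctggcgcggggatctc

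Motifs were searched on both strands in these windows and in the same window of all 35116 promoter entries. None of the motifs contains another. The STAT site TTCNNNGAA was found in 6.57% of all windows, the AP-1 site TGANTCA in 6.57%, the GC box GGGCGG in 42.6%, the E-box CACGTG in 6.34%, the CRE half-site TGACGT in 7.10% and the NF-kappaB consensus in 9.96%. BCL2A1 held 1 STAT site, whose first base on the printed strand lies 168 bases before the start. PMAIP1 held 4 GC boxes and 1 CRE half-site, which reads on the other strand. BCL2L1 held no match at the start shown, which is the outer of its 2 entries, nor at the other. The windows also differed in base composition, with 38.8% of G and C in BCL2A1, 50% in BCL2L1 and 72.8% in PMAIP1, against a median of 58% over all entries. Of the 10 members, 9 had an entry, all but MCL1. The window of BAX, whose signal stayed within 2-fold, held 4 E-boxes. A match is a string of letters and no measured site.

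All values are linear intensities after RMA. The study set its limit of expression at 100 for probe sets of endogenous retroviruses. The same limit was applied here to transcript clusters of genes, for which the study did not use it. The members past this limit were BCL2L1 and MCL1 in L-428 (2 of 10), MCL1 alone in L-540 (1 of 10) and 0 in HDLM-2. Among all named clusters, 4.02% were above 100 in L-540, with 6.69% in L-428 and 3.56% in HDLM-2. A signal also depends on the probes of its cluster, so the level of 1 gene was not set against that of another, and a signal below 100 is no proof that the gene is silent. In each line, 8 of the 10 members lay above the median of the named clusters, which was 8.03 for L-540, 9.12 for L-428 and 8.03 for HDLM-2. The exceptions were BCL2L11 in all lines, BCL2 in L-428, and BCL2A1 in both L-540 and HDLM-2.

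**Figure D1:**
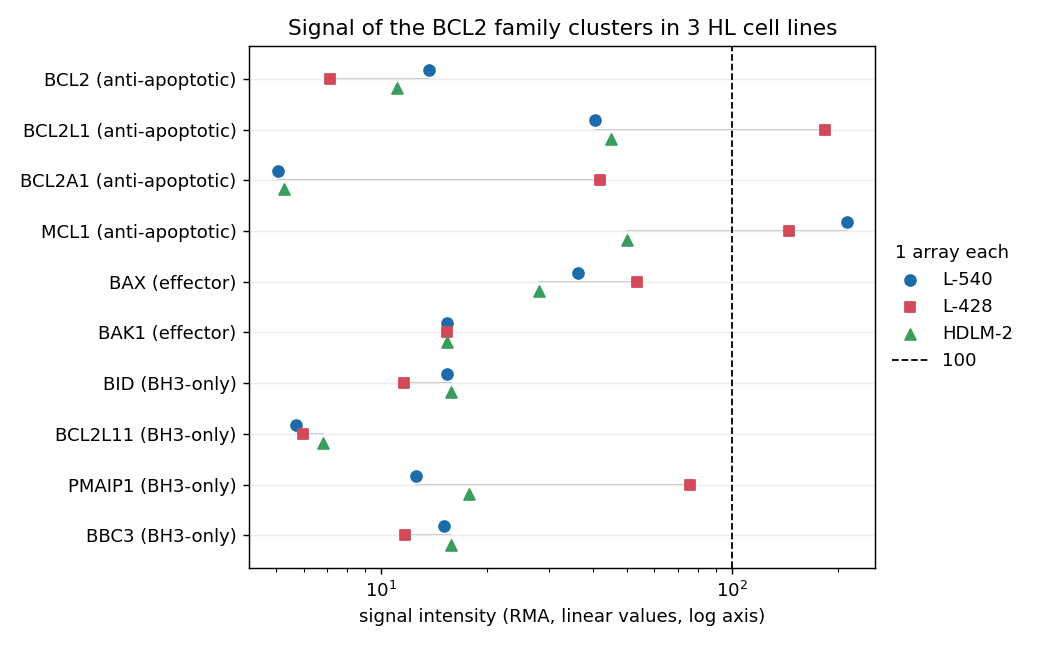
Signal intensity of the 10 BCL2 family clusters (log axis, linear RMA values), 1 symbol for each array, with a dashed line at 100. BCL2L1, BCL2A1 and PMAIP1 lie farthest right in L-428, MCL1 lies farthest left in HDLM-2 at 50.1, and the 3 symbols of BAK1 coincide at 15.4. The clusters of MCL1 and BCL2A1 are shared with other genes.

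Among the anti-apoptotic members, BCL2L1 had a signal of 184 for L-428, 45.1 for HDLM-2 and 40.7 for L-540. L-428 was alone above 100, and L-540 and HDLM-2 were 1.11-fold apart. The signal in L-428 was 4.52-fold that of L-540 (a log2 difference of 2.18) and 4.08-fold that of HDLM-2 (2.03). The value in HDLM-2 was shared by 31 other named clusters, so the latter fold rests on a tied value. BCL2L1 encodes BCL-XL and, by another splice site, the shorter pro-apoptotic form BCL-XS, and a transcript cluster does not separate these forms. Of all named clusters, 3.56% were higher in L-428 than in L-540 by at least as much.

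The cluster of BCL2A1, which encodes a short-lived anti-apoptotic protein of blood cells, had a signal of 41.9 for L-428, 5.05 for L-540 and 5.28 for HDLM-2. The value in L-428 was past 4-fold over both other lines but stayed below 100. The values of L-540 and HDLM-2 lay under the median of their arrays, so they are not read as an order and no size of the fold is read from them. With an offset of 50 added to the signals, the log2 difference of L-428 from L-540 was 0.74. Since the cluster is shared with ST20, its signal cannot be assigned to BCL2A1 alone. Of 2 further clusters that carry ST20 together with its antisense gene ST20-AS1, 1 had 6.05 for L-540, 493 for L-428 and 61.8 for HDLM-2, and the other had 9.998, 7.07 and 11.6 in the same order. One of these clusters thus also had its highest signal in L-428, and its part in the signal of the shared cluster was not tested.

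MCL1 encodes an anti-apoptotic protein with a short half-life, on which many blood cancers depend. Its cluster had a signal of 213 for L-540, 145 for L-428 and 50.1 for HDLM-2. L-540 and L-428 were above 100 and 1.47-fold apart, and HDLM-2 was below. HDLM-2 was lower than L-540 by 4.24-fold (a log2 difference of -2.09) and lower than L-428 by 2.89-fold (-1.53). Of all named clusters, 0.903% were higher in L-540 than in HDLM-2 by at least as much, and 9.19% were higher in L-428 than in HDLM-2 by at least as much as MCL1. ADAMTSL4, a gene for a secreted protein that shares the cluster, also has 2 clusters of its own, with 9.29 and 4.96 in every line. MCL1 likewise has a long and a short form with opposite roles, which are not separated here.

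BCL2, the founding member of the family, had a signal of 13.7 for L-540, 11.1 for HDLM-2 and 7.14 for L-428. L-428, the highest line for BCL2L1, was thus the lowest for BCL2, at 1.92-fold below L-540. All 3 values of BCL2 were far below 100, and that of L-428 lay below the median of its array, so the order for BCL2 rests on low signals. The log2 ratio of BCL2L1 to BCL2 was higher in L-428 than in L-540 by 3.11 and higher than in HDLM-2 by 2.66. A shift of a whole array cancels in such a ratio of 2 genes.

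Neither effector reached 4-fold in any pair of lines. BAX had a signal of 53.6 for L-428, 36.4 for L-540 and 28.0 for HDLM-2, with 1.91-fold between the highest and the lowest line. BAK1 had 15.4 in all 3 lines. Identical values are frequent in these arrays, with 39.0% of the named clusters equal in all lines, and 119 other named clusters had exactly the value of BAK1 in L-540. The tie of BAK1 is therefore not read as equal expression.

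Among the BH3-only members, PMAIP1 had a signal of 75.6 for L-428, 17.8 for HDLM-2 and 12.5 for L-540. PMAIP1 encodes NOXA, a small protein that directs MCL1 to degradation and is switched on by p53 and by other stress pathways. L-428 was 6.02-fold above L-540 and 4.25-fold above HDLM-2, and none of the lines reached 100. With an offset of 50 the log2 difference from L-540 went from 2.59 to 1.01. PMAIP1 and BCL2L1, which act in opposite directions on apoptosis, thus had the same highest line.

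The other BH3-only members had low signals with little spread. BID, which is cut by caspase-8 and so links death receptors to the mitochondria, had 15.7 for HDLM-2, 15.4 for L-540 and 11.6 for L-428. BBC3, a target of p53, had 15.8 for HDLM-2, 15.1 for L-540 and 11.6 for L-428. Both were lowest in L-428 by at most 1.35-fold. The value of BID in L-540 is the same tied value as that of BAK1, so its order between L-540 and HDLM-2 is not read. BCL2L11, which encodes BIM and is a target of FOXO factors, had 6.82 for HDLM-2, 5.96 for L-428 and 5.69 for L-540. These 3 values lay below the median of the arrays and are not read as an order, and the value in HDLM-2 was shared by 293 other named clusters.

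The lines were then compared in pairs. A cluster was called different at 4-fold or more with the higher signal above 100. In L-428 minus L-540, 1 of the 10 members was called higher (BCL2L1) and 0 lower, against 1.47% and 0.338% of all named clusters. In HDLM-2 minus L-540, 0 were called higher and 1 lower (MCL1), against 0.291% and 0.35%. In HDLM-2 minus L-428, 0 were called higher and 1 lower (BCL2L1), against 0.309% and 1.95%. Each count therefore rests on 1 gene, at 4.08-fold to 4.52-fold.

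By this rule only clusters with a signal above 100 can be called. Of the clusters above 100 in at least 1 line of the pair, 19.5% were called higher in L-428 than in L-540, and of the 2 members above 100 there, BCL2L1 was called. Likewise 26.3% were called lower in HDLM-2 than in L-428, again with BCL2L1 among 2 members. In HDLM-2 minus L-540 the share of lower calls was 7.24%, and MCL1 was the only member above 100. The difference of BCL2L1 is thus of a size that many clusters with a signal had in L-428. Without the threshold of 100, 3 members were at least 4-fold higher in L-428 than in L-540 and 3 were at least 4-fold lower in HDLM-2 than in L-428, in both cases BCL2L1, BCL2A1 and PMAIP1. The shares of all named clusters were 4.19% and 5.54%.

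Over the 10 members, the median log2 difference was 0.033 in L-428 minus L-540, 0.047 in HDLM-2 minus L-540 and -0.47 in HDLM-2 minus L-428, and over all named clusters it was 0 in each pair. In L-428 minus L-540, 5 members were higher, 4 lower and 1 equal. In HDLM-2 minus L-540, 6 were higher and 3 lower, and in HDLM-2 minus L-428, 4 were higher and 5 lower. The count of higher members in HDLM-2 minus L-540 includes BCL2A1, BID and BCL2L11, whose order between these lines is not read. BCL2L11 is not read in the other pairs either. By these signs the family as a whole had no common direction. In L-428 minus L-540 anti-apoptotic members were found on both sides, as were BH3-only members. Over the named clusters above 100 in at least 1 line of the pair, the median difference was 0.80 between L-428 and L-540, -0.024 between HDLM-2 and L-540 and -1.06 between HDLM-2 and L-428. A cluster enters these medians through the line where it is above 100, and 1126 clusters were above it for L-428, 599 for HDLM-2 and 677 for L-540, so the medians are no measure of a shift of the whole array. The part of this difference between the arrays in the values of BCL2L1, BCL2A1 and PMAIP1 was not tested.

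**Figure D2:**
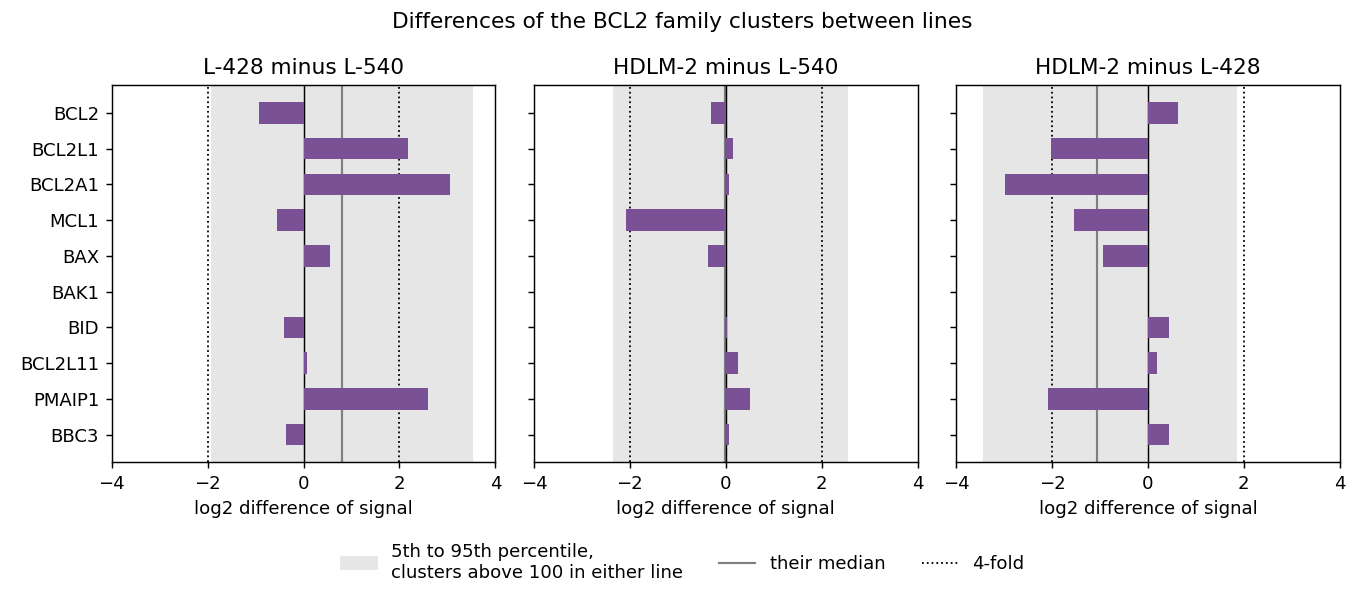
Log2 difference of the signal of each member for the 3 pairs of lines (bars). The grey band holds all but the lowest and the highest 5% of the named clusters above 100 in either line, the grey line is their median (0.80, -0.024 and -1.06 from left to right), and dotted lines mark 4-fold. Bars of BCL2L1, BCL2A1 and PMAIP1 pass 4-fold in both pairs that include L-428, and that of MCL1 passes it in HDLM-2 minus L-540. No size is read from the bars of BCL2A1, as its signals in L-540 and HDLM-2 are low.

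The differences depended on how the arrays were scaled. When the arrays were shifted to one median, the median over the named clusters moved by -0.31 in L-428 minus L-540 and by 0.36 in HDLM-2 minus L-428, and with quantile normalization of the 3 arrays it moved by -0.21 and 0.23. BCL2L1 was then above L-540 in L-428 by 1.87 and 1.54 on the log2 scale, and was called under neither. Of all calls in this pair, 81.2% were higher in L-428 as deposited, 67.0% with one median and 54.6% with quantile normalization. L-428 stayed the highest line for BCL2L1, BCL2A1 and PMAIP1 under both scalings. In HDLM-2 minus L-428, however, the difference of PMAIP1 went from -2.09 to -1.73 with one median and -1.39 with quantile normalization, and that of BCL2L1 from -2.03 to -1.67 and -1.23, so neither was past 4-fold in this pair. In L-428 minus L-540, PMAIP1 stayed past 4-fold, with 2.28 and 2.02, and BCL2A1 stayed past it in both pairs. For BCL2A1 this rests on low signals in L-540 and HDLM-2, and no size is read from it. BCL2 passed 2-fold in L-428 minus L-540, with -1.25 and -1.23, and also in HDLM-2 minus L-428 with quantile normalization (1.01). BAX, in contrast, had 40.6 in L-540 and 38.9 in L-428 after quantile normalization, so its order of these lines turned, and BCL2L11 was lower in L-428 than in L-540 under both scalings. MCL1 stayed lowest in HDLM-2, with log2 differences from L-540 of -2.04 and -1.84. Its difference from L-428 shrank more, from -1.53 to -1.17 with one median and -0.71 with quantile normalization.

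**Figure D3:**
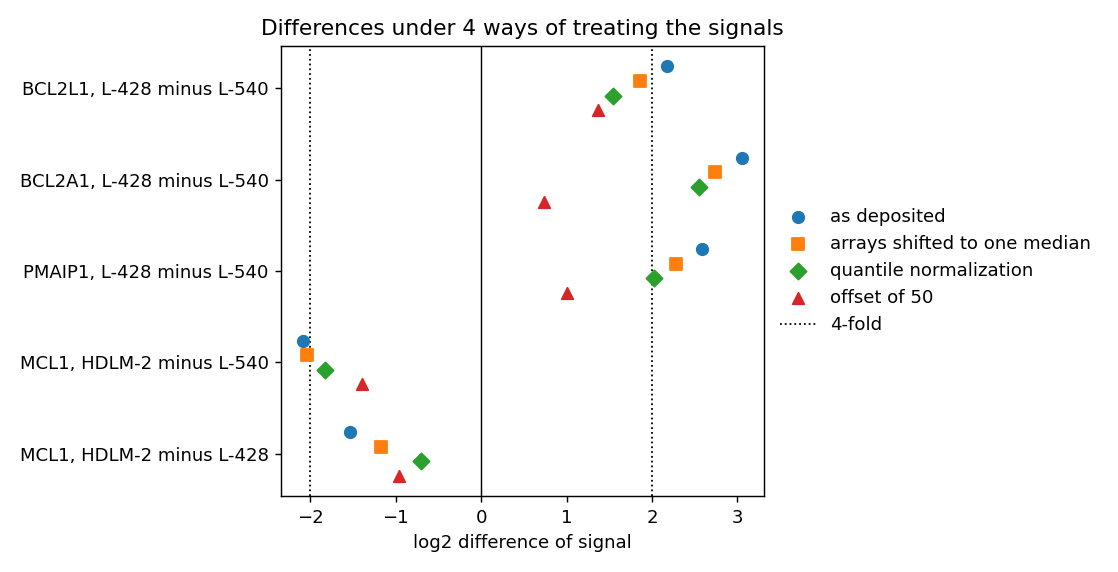
Log2 difference of the 4 members that passed 4-fold as deposited, for the signals as deposited, after shifting the arrays to one median, after quantile normalization of the 3 arrays and with an offset of 50 added before the logarithm. Dotted lines mark 4-fold. Every symbol keeps its side of 0, which an offset cannot change. With the offset BCL2L1 goes from 2.18 to 1.37, PMAIP1 from 2.59 to 1.01 and BCL2A1 from 3.05 to 0.74.

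Relative to each other, the members were not shifted alike. From L-540 to L-428, the log2 ratio of BCL2L1 to the effector BAX was higher by 1.62, while the log2 ratio of MCL1 to its binding partner PMAIP1 was lower, at -3.14. From L-540 to HDLM-2, the ratio of MCL1 to PMAIP1 was also lower, at -2.59, and that of BCL2L1 to BAX was higher by 0.52. The ratio of BCL2L1 to PMAIP1 moved little, by -0.42 from L-540 to L-428 and by -0.35 from L-540 to HDLM-2. The ratio of MCL1 to BCL2L1 differed by -2.73 from L-540 to L-428 and by -2.23 from L-540 to HDLM-2. L-540 was thus the line with most MCL1 signal relative to BCL2L1 and to PMAIP1. These pairs of genes were chosen after their values were seen.

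The genes whose pattern over the 3 lines was nearest to that of BCL2L1, by Euclidean distance of centred log2 signals among 1130 other single-gene clusters above 100 in at least 1 line, were MAGT1 at 0.020, MRPL21 at 0.067 and GINS2 at 0.070. Within a distance of 0.3 there were 35 of these 1130 clusters. More clusters were above 100 in L-428 than in either other line, and a candidate had to be above 100. The count is therefore no measure of how common the pattern is. GINS2, a subunit of the replicative helicase complex, had 43.7 for L-540, 211 for L-428 and 49.4 for HDLM-2. For MCL1 the nearest were HSPA8 at 0.12, NAGK at 0.18 and PAIP2 at 0.26, and 6 clusters lay within 0.3. HSPA8, a constitutive heat shock protein, had 3387 for L-540, 2587 for L-428 and 830 for HDLM-2. A likeness over 3 arrays is a weak description, as many genes share any given order of lines.

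Of 13 other genes of the BCL2 family, 12 had a cluster, in 13 clusters, and 7 of these clusters had the same value in all lines. Only 3 exceeded 100 in any line, BNIP3, BNIP3L and HRK. BNIP3, which acts in the removal of mitochondria and is raised by hypoxia, had 353 for L-428, 60.4 for HDLM-2 and 2.36 for L-540. It was called higher in L-428 than in L-540 and lower in HDLM-2 than in L-428, by 5.85-fold in the latter pair. Its value in L-540 is near the lowest signals, so no fold is read from it. BNIP3L, its relative with a similar role, had 482 for L-540, 470 for L-428 and 282 for HDLM-2, and was within 2-fold throughout.

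HRK and BCL2L10 are described although the rule for naming genes did not select them. HRK, a BH3-only gene known from neurons, had 140 for HDLM-2, 92.7 for L-540 and 52.9 for L-428, with L-428 lowest. BCL2L10, an anti-apoptotic relative, had 45.6 in L-428, with 2.27 in HDLM-2 and 2.98 in L-540, and so shared its highest line with BCL2L1 and BCL2A1. The values of BCL2L10 in HDLM-2 and L-540 lay below the medians of their arrays, so no order and no fold is read from them. In this list 1 cluster was called higher in L-428 than in L-540 and 1 lower in HDLM-2 than in L-428, both BNIP3, and 0 were called in HDLM-2 minus L-540. That is 1 of 13 clusters in each pair, beside 1.47% and 1.95% of all named clusters. The median difference of the list was 0 in each pair, as it was over all named clusters.

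Downstream of the mitochondria, 12 of 15 genes of the apoptosome, its caspases and the inhibitors of apoptosis had a cluster, in 14 clusters. Of these, 2 exceeded 100. AIFM1, a mitochondrial flavoprotein that can leave for the nucleus in cell death, had 124 for L-428, 13.6 for L-540 and 11.5 for HDLM-2. It was the only cluster called, higher in L-428 than in L-540 by 9.12-fold and lower in HDLM-2 than in L-428 by 10.8-fold. That is 1 of 14 clusters beside the same 1.47% and 1.95%. The value of AIFM1 in L-540 was also that of other clusters, among them BIRC2, so the 9.12-fold rests on a tied value. VDAC1, the channel of the outer membrane, had 278 in both L-540 and HDLM-2 and 239 in L-428. The median of the list was 0.12 in L-428 minus L-540, 0 in HDLM-2 minus L-540 and -0.16 in HDLM-2 minus L-428. CYCS, APAF1 and CASP9, which form the apoptosome and were named after their values were seen, had signals of at most 24.9, the value of CASP9 in L-428.

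Of 18 regulators of the members, 17 had a cluster, in 18 clusters. Those called were a cluster shared by STAT5A and STAT5B and the cluster of HUWE1, both higher in L-428 than in L-540, and MDM2, lower in HDLM-2 than in L-540. That is 2 of 18 clusters beside 1.47% and 1 of 18 beside 0.35% of all named clusters. The STAT5 cluster had 155 for L-428, 64.7 for HDLM-2 and 28.8 for L-540, while a further cluster of both genes had 58.7 in all lines. STAT5 is known to switch on BCL2L1, and the order of the lines in the first of these clusters was the same as for BCL2L1. For BCL2L1 the order of L-540 and HDLM-2 rests on a 1.11-fold difference, and a relation between these genes was not tested. HUWE1, a ubiquitin ligase that marks MCL1 for degradation and whose cluster also carries 2 microRNA genes, had 224 for L-428, 81.1 for HDLM-2 and 55.6 for L-540, just past 4-fold. MDM2, the ubiquitin ligase of p53, had 135 for L-540, 67.8 for L-428 and 17.5 for HDLM-2, the same order of lines as for MCL1. RELA and STAT3 were above 100 in all lines, with 106 to 123 for RELA and 468 to 547 for STAT3. The median of the list was 0 in the comparisons with L-540 and -0.22 in HDLM-2 minus L-428.

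REL and NFKB1 were named after their values were seen. REL, a subunit of NF-kappaB that is known to switch on BCL2A1 and BCL2L1, had 83.6 for L-428, 23.9 for HDLM-2 and 3.56 for L-540, and did not reach 100. The value of REL in L-540 lay below the median of that array, so no fold is read from it. NFKB1, which encodes another subunit, had 65.4 for L-428, 43.0 for HDLM-2 and 23.9 for L-540. Both were thus highest in L-428, the line with the highest signals of BCL2A1 and BCL2L1, and no relation between these genes was tested.

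**Figure D4:**
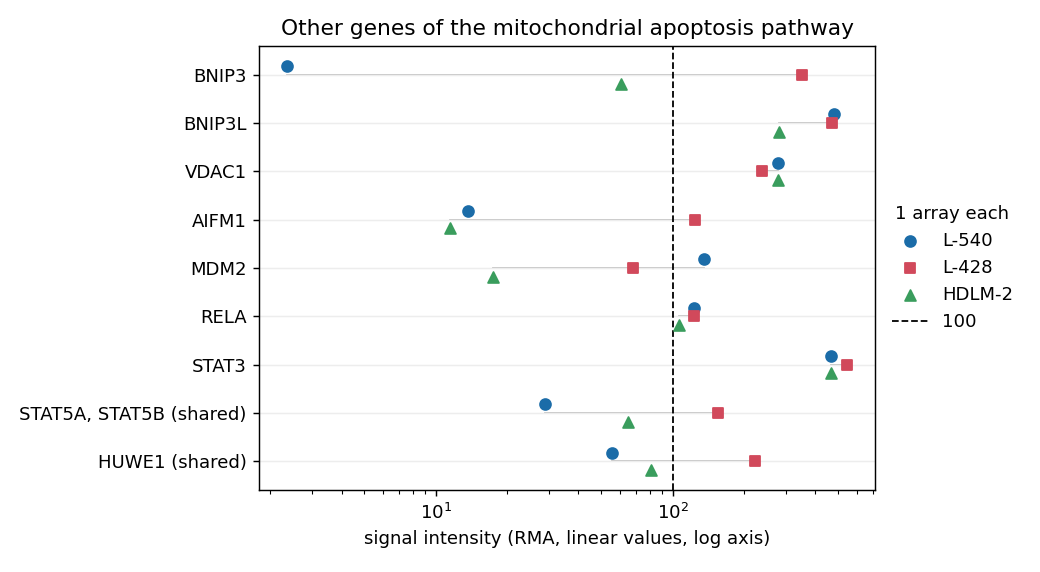
Signal intensity (log axis, linear RMA values) of the clusters of the 3 other gene lists that were called in at least 1 pair of lines or lay above 100 in all lines, 1 symbol for each array. BNIP3 spans 2.36 to 353 and AIFM1 11.5 to 124, both highest in L-428, while BNIP3L, VDAC1, RELA and STAT3 lie above 100 in every line.

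As a check of the labels, the HL cell markers TNFRSF8 (CD30), IRF4 and FSCN1 were above 100 in all lines, with TNFRSF8 at 145 to 158. IRF4 had an identical 598 in every line, and TNFRSF8 was equal in L-540 and HDLM-2. Such ties do not tell the lines apart and, as for BAK1, are not read as equal expression. TRAF1 exceeded 100 only in L-428, with 116, and CCL17 only in HDLM-2, with 233. FUT4, the enzyme that makes CD15, had at most 24.4. The 4 measured B cell markers MS4A1, CD79A, CD79B and PAX5 had at most 8.83, CD3E and CD3D at most 1.90, and the 4 monocyte markers at most 10.2. Values of CD79A, CD79B, PAX5, CD3D and the monocyte marker S100A9 were also identical in all lines. Of the 5 T and NK cell genes, GATA3 alone exceeded 100, with 134 in L-428, while CD2 had at most 6.14. CD247, the zeta chain of the T cell receptor complex, had 12.2 for L-428, 80.5 for HDLM-2 and 93.7 for L-540.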

How the data were processed

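RNA of 3 HL cell lines (L-428, L-540 and HDLM-2) was measured on Affymetrix Human Exon 1.0 ST arrays, 1 for each line. The deposited values are linear signal intensities. The authors computed them with RMA in Affymetrix Expression Console (background correction, quantile normalization and median polish), with the genome build hg18 in the submitters' processing notes. The sources used here do not say whether they come from the joint run with other arrays described in the paper. Values were used as deposited, and log2 differences are ratios of linear signals. Despite the quantile normalization named above, the deposited arrays do not share a distribution. Their medians over all clusters were 7.41 for L-540, 9.18 for L-428 and 7.16 for HDLM-2.

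Gene symbols were those of the platform annotation, 14432 clusters with 1 gene and 2408 with several. All 10 members were matched to RefSeq (GRCh38.p14) by Entrez identifier. Shares called were computed over all 16840 named clusters, at 4-fold with the higher signal above 100. Named were the members, genes of the other lists called in a pair of lines or above 100 in all lines, and the 3 nearest genes of each called member. Members and lists were chosen with earlier results of these data known. With 1 array per line no test was made, and the number of arrays limits the precision. The code for calls and scalings was run on simulated arrays without noise, to which known changes were added. Such a run checks the code and not the differences seen in these data. Alternatives were other folds and thresholds, an offset of 50, one median, quantile normalization and single-gene clusters. Values were computed with pandas 2.3.3 and numpy 2.4.6 in Python 3.11.15, and figures drawn with matplotlib 3.10.9.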

Additional observations from a re-analysis of the deposited data

How the results depend on the processing

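The 3 called differences of members kept their sign in all 9 recomputed values. An offset cannot change a sign, and the shift to one median was too small to turn differences of this size. Only quantile normalization could have changed these signs. Among the other differences of members, 3 values changed sign, BAX in L-428 minus L-540 with quantile normalization (-0.059) and BCL2L11 in the same pair with one median (-0.24) and with quantile normalization (-0.21). The member called higher in L-428 than in L-540 was lost (0 called) at 8-fold, with a threshold of 200, with an offset of 50, with one median and with quantile normalization, and 2 were called with a threshold of 50 and 3 with no filter. The member called lower in HDLM-2 than in L-428 was lost (0 called) under the same 5 settings, and 2 were called at 2-fold, 2 with a threshold of 50 and 3 with no filter. The member called lower in HDLM-2 than in L-540 was lost (0 called) at 8-fold, with the offset, with quantile normalization and with single-gene clusters, as the cluster of MCL1 is shared. Members above 100 in L-428 were 4 with a threshold of 50, 0 with 200 and 1 with single-gene clusters. In HDLM-2 there was 1 with a threshold of 50, and in L-540 there were 0 with single-gene clusters.

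Of the other genes, 1 instead of 4 was called higher in L-428 than in L-540 with quantile normalization and 1 with the offset. In HDLM-2 minus L-428, 1 was called higher with quantile normalization and 1 at 2-fold, while 4 were called lower at 2-fold, 0 with quantile normalization and 0 with the offset. In HDLM-2 minus L-540, 0 were called lower with the offset. The offset shrinks differences of low signals by its construction, and for the remaining changes the cause was not tested. Of 90 recomputed differences of single members, 12 lost their call or moved by at least 1 on the log2 scale. Signals below the array median limit what can be read for BCL2L11 and BCL2A1, and values tied with other clusters what can be read for BAK1 and BID. BCL2L1 in HDLM-2, on which its call in HDLM-2 minus L-428 rests, and BAX in L-540 also had values tied with other clusters. Among the other genes, AIFM1 had such a tied value in L-540, on which its call in L-428 minus L-540 rests. No paired analysis was possible because there was a single array of each line.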
